A study of Mus musculus with 16 samples.

Results

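The major histocompatibility complex (MHC) and antigen presentation genes of the mouse were followed in liver and white adipose tissue under halofuginone. Members were every row of both deposited count tables whose symbol begins with H2- and a capital letter, leaving out H2-Ke6, together with B2m, Cd74, Ciita, Nlrc5, Tap1, Tap2, Tapbp, Psmb8, Psmb9 and Psmb10. This gave 47 of 22322 genes, of which 35 were counted as class I and 12 as class II. Class II held the alpha and beta chains H2-Aa, H2-Ab1, H2-Ea-ps, H2-Eb1 and H2-Eb2, the peptide exchange proteins H2-DMa, H2-DMb1, H2-DMb2, H2-Oa and H2-Ob, the invariant chain Cd74 and the transactivator Ciita. All other members were counted as class I.

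The series is RNA-seq of DIO mice, that is, mice made obese by diet. Mice of both groups were injected intraperitoneally every 2 days, either with vehicle (labelled HFD) or with 100 μg/kg of halofuginone (labelled H100), and tissue was taken after 8 weeks. Halofuginone is a small molecule that inhibits prolyl-tRNA synthetase. There were 5 libraries per group for liver and 3 per group for white adipose tissue, called fat here. All 4 groups carry the HFD or H100 label in place of a genotype, and strain, sex, age and fat depot are not given in the labels. No lean or untreated group was analysed here, and nothing in the labels says that libraries of 1 group came from separate mice, so p-values measure the spread between these libraries.

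Class I molecules present peptides cut in the cytosol to CD8 T cells. The proteasome makes the peptides, the transporter Tap1 and Tap2 carries them into the endoplasmic reticulum, Tapbp (tapasin) helps to load them, and each heavy chain pairs with the light chain B2m. Interferon-gamma exchanges the catalytic proteasome subunits for Psmb8, Psmb9 and Psmb10 and raises class I genes through the transactivator Nlrc5. Class II molecules present peptides from endocytosed protein to CD4 T cells, are found above all on dendritic cells, B cells and macrophages, and depend on Ciita for transcription. Cd74 blocks the class II groove until H2-DM exchanges its fragment for a peptide. H2-Q10 is a class I chain of the Qa region that hepatocytes secrete.

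Promoter sequences of RefSeq (GRCm38.p6, 300 bases around each start) were matched to 36 of the 47 members, and those without an entry were Cd74, Ciita, H2-Ab1, H2-Bl, H2-Ea-ps, H2-Q1, H2-Q5, H2-T10, H2-T24, Nlrc5 and Tap2. The windows of 4 class I heavy chains are shown because H2-Q7 and H2-Q10 had values of opposite sign in liver while H2-K1 and H2-D1 lay between them, and those of 2 class II chains because both were low in the same liver libraries. Capitals in the class I windows mark GGGATTCCC (the core of a κB site), TTTCACTTC (GAANNGAAA read on the other strand, the letters of an interferon-stimulated element), TGACG (the core of a CREB site) and ATTGG (the core of the Y box, bound by NF-Y). Capitals in the class II windows mark TGACG on either strand and ATTGG. The windows lie at chr17:34000348-34000467 on the minus strand for H2-K1, chr17:35262914-35263033 on the plus strand for H2-D1, chr17:35439013-35439132 on the plus strand for H2-Q7, chr17:35469904-35470023 on the plus strand for H2-Q10, chr17:34287857-34287931 on the minus strand for H2-Aa and chr17:34305748-34305822 on the plus strand for H2-Eb1.
H2-K1: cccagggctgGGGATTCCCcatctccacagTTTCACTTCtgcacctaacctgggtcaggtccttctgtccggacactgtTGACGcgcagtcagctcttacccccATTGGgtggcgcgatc
H2-D1: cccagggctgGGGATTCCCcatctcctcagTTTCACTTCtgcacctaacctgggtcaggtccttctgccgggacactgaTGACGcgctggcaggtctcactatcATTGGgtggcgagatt
H2-Q7: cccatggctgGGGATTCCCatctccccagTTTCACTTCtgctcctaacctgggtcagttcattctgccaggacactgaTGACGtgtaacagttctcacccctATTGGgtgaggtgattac
H2-Q10: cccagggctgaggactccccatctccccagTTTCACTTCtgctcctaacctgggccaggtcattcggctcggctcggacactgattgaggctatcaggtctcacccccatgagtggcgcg
H2-Aa: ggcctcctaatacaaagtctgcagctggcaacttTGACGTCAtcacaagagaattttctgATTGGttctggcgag
H2-Eb1: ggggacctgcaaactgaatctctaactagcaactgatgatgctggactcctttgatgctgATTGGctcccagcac
Both strands were searched in whole promoters, and a match is a description of letters only. A member was counted if any of its promoters matched, while shares are over single promoters. Many members are also near-identical paralogs, so their matches are not separate instances. ATTGG was in 31 of the 36 members and in 37.4% of all 32851 promoters. TGACG was in 15 members and 20.8% of promoters, and GAANNGAAA in 8 members and 7.52% of promoters. GGGATTCCC was in 4 members (H2-D1, H2-K1, H2-Q6 and H2-Q7) and in 0.353% of promoters. The promoter of H2-Q10 held GAANNGAAA and none of GGGATTCCC, TGACG and ATTGG in its printed or whole window. The X box core CCTAGNAAC was in H2-DMb1 and H2-Ob and in 1.52% of promoters, its relaxed form CCNNGNAAC in 9 members and 15.1%, and GAAANNGAA in B2m, H2-T22 and H2-T23 and in 8.56%. A promoter without a match is not shown to lack an X box. The printed windows hold actagcaac in H2-Eb1 and gctggcaac in H2-Aa, which differ from the relaxed form only in the opening letter. TGACG and its other strand overlap in H2-Aa, where they form 1 run.

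Library totals were 20309956 to 31980683 counts in liver and 17070614 to 21387799 in fat. Levels per library are in CPM, counts relative to a library size adjusted by TMM (trimmed mean of M-values). A count of 0 allows up to 3 counts, or 0.0983 to 0.150 CPM in liver and 0.139 to 0.1799 CPM in fat, and such floors cover counting error only. The tissue labels matched their defining markers: summed hepatocyte markers were 35097 to 116248 CPM in liver and 2.55 to 7.05 CPM in fat, and adipocyte markers 18.3 to 110.9 CPM in liver, where Lep was at 0 and Adipoq and Plin1 at the floor, and 5241 to 11149 CPM in fat. The halofuginone library of replicate 1 in liver (halofuginone liver 1) stood apart from the other 4 of its group, so liver results are also given without it where its absence changes a call or moves a called value by over 1.5 times.

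A low-count filter left 29 members in liver (21 class I and 8 class II) and 33 in fat (22 and 11). Members listed at 0 in every library numbered 12 in liver and 10 in fat. In liver these were the class I genes H2-M1, H2-M5, H2-M9, H2-M11, H2-T3 and the 6 genes H2-M10.1 to H2-M10.6, and the class II gene H2-Ea-ps. The remaining members that did not pass had at most 34 counts in a liver library and at most 15 in a fat library. Class I heavy chains are near-identical paralogs, so reads they share may have been divided between them in the authors' counting and their separate values are uncertain.

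Per transcript length, the leading class I members were far above class II in vehicle liver. In deposited FPKM (fragments relative to transcript length and depth), B2m was at 1411 ± 131, H2-Q10 at 966 ± 149.96, H2-K1 at 635 ± 65.7 and H2-D1 at 287 ± 31.9 (mean ± SD, n = 5). Cd74, the highest class II member there, was at 74.8 ± 12.8 FPKM and H2-Aa at 41.5 ± 7.77. In vehicle fat the classes were closer: B2m was at 1993 ± 375 FPKM, H2-D1 at 1263 ± 145, Cd74 at 892 ± 296, H2-K1 at 815 ± 206 and H2-Aa at 651 ± 229 (n = 3). H2-Q10 was low in fat, at 2.3 ± 0.4803 FPKM.

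Halofuginone liver was compared with vehicle liver first for class II. In 4 of 5 halofuginone livers the class II chains H2-Aa, H2-Ab1 and H2-Eb1, the invariant chain Cd74 and Ciita were below every vehicle liver, and in halofuginone liver 1 they were within or above the vehicle range. Over all 5 libraries, 1 of 8 class II members fell (H2-Eb1) and 0 rose, beside 10.5% of all tested genes called lower and 23.2% called in either direction at an adjusted p under 0.05. Without halofuginone liver 1, 7 of 8 fell and 0 rose, beside 21.6% of genes called lower and 42.8% called in all. That library differed from the other 4 of its group in these same class II values. The class II p-values without it thus describe the remaining libraries and are not separate support for a fall. The median log2 fold change of class II was −0.89 over all libraries and −1.45 without that library, against 0.02 and −0.02 for all genes tested. In bulk tissue, fewer cells of a type and less RNA per cell cannot be told apart.

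H2-Aa, the alpha chain of the I-A molecule, was at 53.7, 41.1, 39.9, 55.004 and 56.3 CPM in vehicle livers 1 to 5 and at 55.8, 10.4, 15.8, 18.2 and 14.9 CPM in halofuginone livers 1 to 5. Halofuginone livers 2 to 5 were all below the lowest vehicle liver, and halofuginone liver 1 was level with the highest. Its log2 fold change was −1.10 (SE 0.39, adjusted p = 0.0596) with edgeR's quasi-likelihood test over all libraries, and −1.75 (adjusted p = 3.54e-05) without halofuginone liver 1. H2-Ab1, the beta chain that pairs with it, was at 36.5, 25.7, 30.8, 37.9 and 37.5 CPM in vehicle livers 1 to 5 and at 42.03, 10.997, 12.8, 14.1 and 10.98 CPM in halofuginone livers 1 to 5. The same 4 libraries were low and halofuginone liver 1 was the highest of all 10. The log2 fold change of H2-Ab1 was −0.90 (SE 0.35, adjusted p = 0.0829), and −1.48 (adjusted p = 2.48e-05) without that library. H2-Eb1, the beta chain of the I-E molecule, was at 34.5, 26.7, 27.5, 37.8 and 38.3 CPM in vehicle livers 1 to 5 and at 34.7, 7.46, 9.62, 11.4 and 9.01 CPM in halofuginone livers 1 to 5. The groups overlapped only through halofuginone liver 1, which lay inside the vehicle range. H2-Eb1 fell by 1.20 on the log2 scale (SE 0.38, adjusted p = 0.0415), and by 1.83 without halofuginone liver 1 (adjusted p = 1.54e-05). The H2-Eb1 call was lost, with adjusted p between 0.0622 and 0.101, when any 1 of vehicle livers 1 to 5 or halofuginone livers 2 to 5 was left out.

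Cd74 was at 113, 76.98, 94.1, 105 and 113 CPM in vehicle livers 1 to 5 and at 119, 31.8, 41.5, 44.6 and 36.1 CPM in halofuginone livers 1 to 5. Here too halofuginone livers 2 to 5 lay below all vehicle livers, and halofuginone liver 1 was above all of them. The log2 fold change was −0.88 (SE 0.33, adjusted p = 0.07098), and −1.41 (adjusted p = 4.22e-05) when halofuginone liver 1 was left out. Ciita, the transactivator of the class II genes, was at 2.297, 2.15, 1.86, 2.502 and 2.46 CPM in vehicle livers 1 to 5 and at 3.28, 0.671, 0.823, 0.656 and 0.6702 CPM in halofuginone livers 1 to 5. Its 4 low libraries were 0.656 to 0.823 CPM, and halofuginone liver 1 was the highest of all 10 libraries. Ciita gave a log2 fold change of −0.93 (SE 0.43, adjusted p = 0.134), and −1.69 (adjusted p = 5.21e-05) without halofuginone liver 1. H2-DMa and H2-DMb1, which form the peptide exchange protein, had log2 fold changes of −0.46 and −0.67 (adjusted p = 0.303 and 0.140), and fell by 0.79 and 1.09 without halofuginone liver 1 (adjusted p = 0.0286 and 0.00193). H2-DMb2, another beta chain of the same protein, was the exception: its log2 fold change was 0.16 over all libraries and −0.23 without halofuginone liver 1, with adjusted p of 0.778 and 0.570. DESeq2 on all 10 libraries called 4 class II members lower, where H2-Aa, H2-Ab1 and Cd74 passed with adjusted p of 0.0206, 0.04398 and 0.0322.

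**Figure D1:**
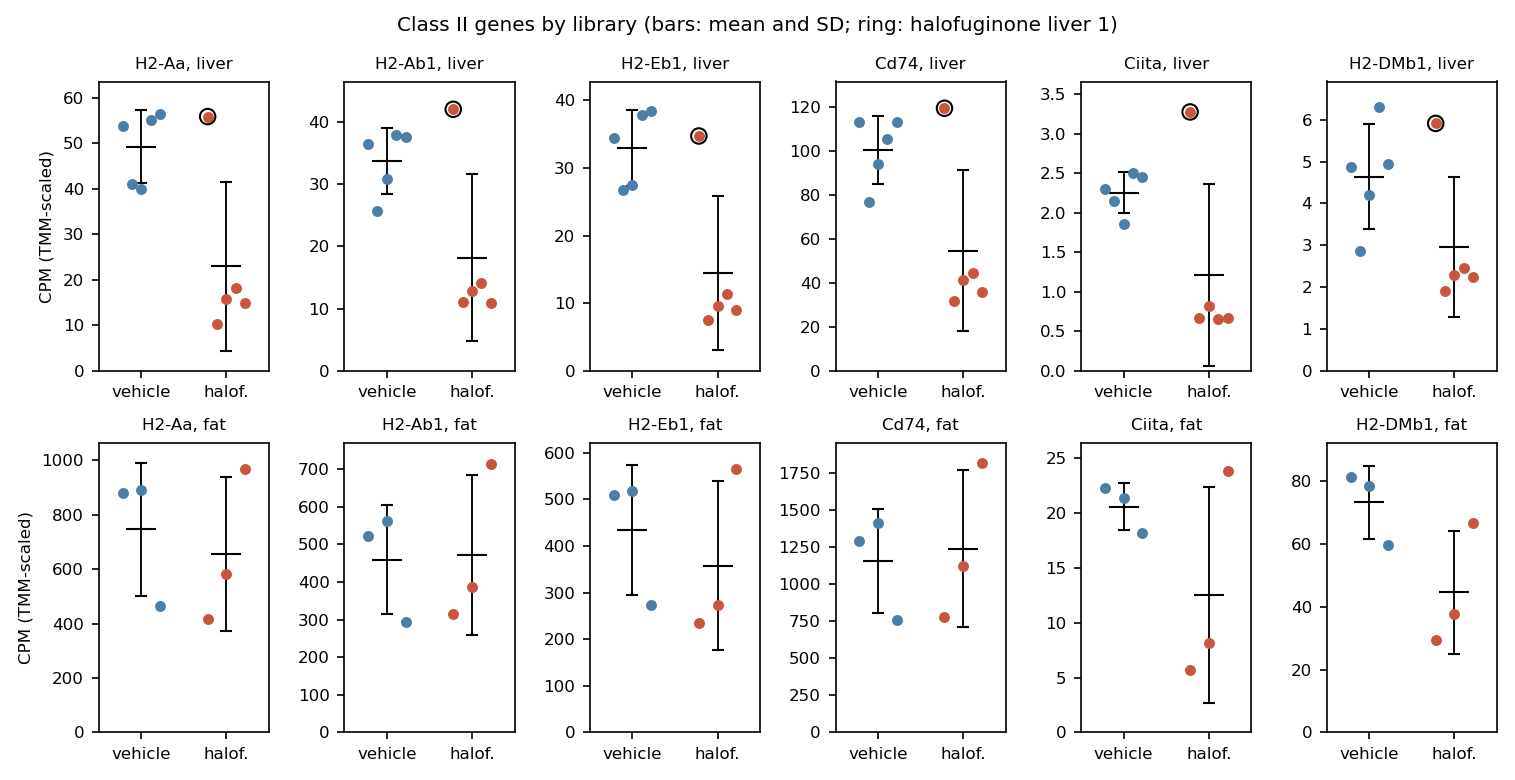
Levels of 6 class II genes by library, in TMM-scaled CPM on a linear axis from 0, for vehicle (blue) and halofuginone (red) libraries of liver (top) and fat (bottom), with mean and SD as black bars and halofuginone liver 1 ringed. Halofuginone livers 2 to 5 sit between 31.8 and 44.6 CPM for Cd74, below the vehicle livers at 77.0 to 113.4 CPM, while the ringed library is at 119.5 CPM; in fat the groups overlap in all 6 genes.

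Class I showed no shared direction in liver. Of 21 members tested, 5 fell (H2-Q1, H2-Q10, B2m, H2-T22 and Psmb10), 1 rose (Tap2) and 15 did not pass, beside 10.5% of all tested genes called lower and 12.7% called higher. The median log2 fold change was −0.11, and it was 0.04 when libraries were scaled by library size alone, a scaling that moved the median of all genes from 0.02 to 0.17. Under that scaling 5 class I members were called higher (H2-Q4, H2-Q6, H2-Q7, Tap2 and Tapbp) and 2 lower (H2-Q1 and H2-Q10). The share of higher among all called genes was then 76.9% in place of 54.7%. Without halofuginone liver 1, 8 class I members fell and 2 rose, beside 21.6% and 21.2% of genes. The groups did not overlap for 5 members, all class I (4 lower and 1 higher), beside 11.7% of all tested genes.

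Within class I, the largest falls over all libraries were in 2 chains of the Qa region. H2-Q10, the secreted chain, was at 1395, 1773, 1204, 1648 and 1481 CPM in vehicle livers 1 to 5 and at 964, 503, 549, 683 and 632 CPM in halofuginone livers 1 to 5. Every halofuginone liver was below every vehicle liver, and halofuginone liver 1 was the highest of its group. H2-Q10 fell by 1.17 on the log2 scale (SE 0.19, adjusted p = 0.00504), a 2.25-fold lower level, and by 1.36 without halofuginone liver 1. H2-Q1, a low-abundance Qa chain, was at 7.604, 7.31, 4.75, 12.9 and 8.85 CPM in vehicle livers 1 to 5 and at 1.54, 1.86, 1.72, 1.35 and 0.931 CPM in halofuginone livers 1 to 5. All 5 halofuginone livers were below the lowest vehicle liver, and halofuginone liver 1 lay among the others here. H2-Q1 fell by 2.48 (SE 0.27, adjusted p = 0.000896), a 5.59-fold lower level, and by 2.52 without halofuginone liver 1. Both calls held in all 20 alternative analyses of the liver comparison, with adjusted p of at most 0.0195 for H2-Q10 and 0.0106 for H2-Q1, although on the log2(FPKM + 1) scale, which understates changes of low genes, the fall of H2-Q1 was 1.43.

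Hepatocyte markers were set beside H2-Q10. Summed hepatocyte markers were 101387 to 116248 CPM in vehicle livers and 35097 to 74141 CPM in halofuginone livers 2 to 5, with 96378 CPM in halofuginone liver 1. Ttr (transthyretin) fell by 1.17 on the log2 scale (adjusted p = 0.0217) and Tat (tyrosine aminotransferase) rose by 1.66 (adjusted p = 0.00827), while Alb (albumin), the main part of the sum, had a log2 fold change of −0.86 (adjusted p = 0.0742), Apob −0.45 and Apoa1 −1.12 (adjusted p = 0.0823 and 0.0915). Thus edgeR called 1 of 5 lower and 1 higher over all libraries, beside 23.2% of all tested genes called. All 5 had an unadjusted p under 0.05, and DESeq2 called all 5. The groups did not overlap for Alb and Ttr, as for 11.7% of all tested genes. When halofuginone liver 1 was left out 4 fell (Alb, Apoa1, Apob and Ttr) and 1 rose (Tat), beside 42.8%. The part of these hepatocyte transcripts in the fall of H2-Q10 was not tested. Within each library, the ratio of H2-Q10 to H2-K1 counts was 1.23 to 1.80 in vehicle livers and 0.743 to 0.942 in halofuginone livers, with halofuginone liver 1 again the highest of its group.

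The classical heavy chains, which present peptides on most cells, moved less. H2-K1 was at 1132, 987, 957, 1115 and 1114 CPM in vehicle livers 1 to 5 and at 1023, 677, 681, 784 and 781 CPM in halofuginone livers 1 to 5. Halofuginone livers 2 to 5 were below all vehicle livers and halofuginone liver 1 was within their range. Its log2 fold change was −0.43 (SE 0.14, adjusted p = 0.05205), and −0.56 (adjusted p = 0.00288) without halofuginone liver 1. Over all libraries DESeq2 (adjusted p = 0.00783) and edgeR with a filter of 1 CPM (adjusted p = 0.0497) called H2-K1 lower. In 17 other settings it stayed uncalled. H2-D1 was at 663, 556, 586, 682 and 627 CPM in vehicle livers 1 to 5 and at 608, 577, 536, 589 and 576 CPM in halofuginone livers 1 to 5. The groups overlapped, the log2 fold change was −0.11 (SE 0.11, adjusted p = 0.483), and under scaling by library size alone it was 0.04. B2m, the light chain shared by all class I molecules, was at 1381, 1153, 1220.5, 1309 and 1331 CPM in vehicle livers 1 to 5 and at 1120.3, 709, 772, 938 and 875 CPM in halofuginone livers 1 to 5. Every halofuginone liver was below every vehicle liver, with halofuginone liver 1 nearest to them. B2m fell by 0.53 (SE 0.15, adjusted p = 0.0268), and by 0.66 without halofuginone liver 1. The B2m call was lost, with adjusted p between 0.0556 and 0.0733, without vehicle liver 1, 4 or 5 or halofuginone liver 3 or 5. It was also lost with scaling by library size alone (−0.39, adjusted p = 0.0523) and in 1 fit of all 16 libraries (adjusted p = 0.0504).

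Among the nonclassical chains, H2-T22, a ligand of gamma-delta T cells, was at 89.3, 88.9, 72.2, 92.4 and 88.4 CPM in vehicle livers 1 to 5 and at 69.3, 50.6, 60.7, 66.3 and 75.95 CPM in halofuginone livers 1 to 5. The groups overlapped only through vehicle liver 3, the lowest vehicle library by a wide gap. H2-T22 fell by 0.42 (SE 0.12, adjusted p = 0.0286), and the call was lost, with adjusted p between 0.0584 and 0.0745, without vehicle liver 1, 2, 4 or 5 or halofuginone liver 3. It was also lost with scaling by library size alone (−0.27, adjusted p = 0.106), in 1 fit of all 16 libraries (adjusted p = 0.186) and with limma on either FPKM scale (−0.27 on both, adjusted p = 0.106 and 0.107). H2-T23, which encodes Qa-1 and is read by NK cell receptors, went from 204 ± 16.1 to 153 ± 34.4 CPM (mean ± SD, n = 5 each), with a log2 fold change of −0.41 (SE 0.16, adjusted p = 0.0755). H2-Q4, H2-Q6 and H2-Q7, neighbours of H2-Q10 in the Qa region, had positive log2 fold changes of 0.34, 0.48 and 0.35, each short of the threshold (adjusted p = 0.0570, 0.0509 and 0.0528). Scaling by library size alone called each of them higher. H2-Q7 averaged 33.4 ± 5.63 CPM in vehicle and 42.5 ± 3.5999 CPM in halofuginone livers. The Qa chains whose promoters are printed above thus had values of opposite sign, H2-Q7 at 0.35 and H2-Q10 at −1.17. H2-T23 fell by 0.46 (adjusted p = 0.0396) and H2-Q4 rose by 0.35 (adjusted p = 0.0289) without halofuginone liver 1, while H2-Q6 and H2-Q7 again did not pass. H2-T24 had a log2 fold change of −0.44 over all libraries (adjusted p = 0.161) and fell by 0.70 without that library (adjusted p = 0.00424). The other tested heavy chains, H2-M3, H2-Q5 and H2-T10, had log2 fold changes from −0.18 to 0.55 over all libraries, and did not pass in either setting.

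Peptide transport and processing genes differed from one another. Tap2 was at 19.96, 16.3, 15.2, 19.3 and 17.3 CPM in vehicle livers 1 to 5 and at 20.5, 34.2, 21.6, 25.7 and 22.3 CPM in halofuginone livers 1 to 5. All 5 halofuginone livers were above all vehicle livers, by a narrow margin for halofuginone liver 1. Tap2 rose by 0.50 (SE 0.14, adjusted p = 0.0321), and the call was lost, with adjusted p between 0.0507 and 0.0786, without vehicle liver 2, 3, 4 or 5 or halofuginone liver 2, 4 or 5. In 1 fit of all 16 libraries its adjusted p was 0.0604. Tap1, its partner subunit, was at 19.4, 16.8, 17.2, 24.6 and 21.9 CPM in vehicle livers 1 to 5 and at 22.9997, 20.2, 20.7, 20.3 and 23.2 CPM in halofuginone livers 1 to 5. Those groups overlapped, with a log2 fold change of 0.11 (SE 0.11, adjusted p = 0.524). Tapbp averaged 62.8 ± 5.903 and 74.5 ± 9.07 CPM, a log2 fold change of 0.25 (SE 0.11, adjusted p = 0.107).

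Of the immunoproteasome subunits, Psmb10 was at 14.02, 12.4, 13.004, 15.2 and 13.7 CPM in vehicle livers 1 to 5 and at 12.1, 12.2, 8.51, 10.3 and 10.7 CPM in halofuginone livers 1 to 5. Its groups did not overlap, with vehicle liver 2 just above halofuginone livers 1 and 2. Psmb10 fell by 0.35 (SE 0.11, adjusted p = 0.0444), and the call was lost, with adjusted p between 0.05399 and 0.102, without any 1 of vehicle livers 1 to 5 or halofuginone livers 3 to 5. The call was also lost with scaling by library size alone (−0.20, adjusted p = 0.209), with no low-count filter (adjusted p = 0.0571), in 1 fit of all 16 libraries (adjusted p = 0.281) and with limma on FPKM (adjusted p = 0.197 and 0.195). Psmb8 was at 20.3, 16.4, 15.5, 20.1 and 20.9 CPM in vehicle livers 1 to 5 and at 18.6, 20.1, 17.4, 20.1 and 18.8 CPM in halofuginone livers 1 to 5. The groups overlapped fully, with a log2 fold change of 0.03 (SE 0.10, adjusted p = 0.876), and Psmb9 gave −0.09 (SE 0.17, adjusted p = 0.739). Each subunit was also set against the constitutive subunit it replaces, as a log2 ratio of counts within a library. The difference between groups in liver was −0.17 for Psmb8 over Psmb5 (exact permutation p = 0.317), −0.11 for Psmb9 over Psmb6 (exact permutation p = 0.5) and −0.083 for Psmb10 over Psmb7 (exact permutation p = 0.571), 2-sided. In fat the differences were 0.21, 0.24 and 0.36 (exact permutation p = 0.800, 0.800 and 0.600), where 3 against 3 cannot go below 0.1, and adjusted over the 6 tests every p was 0.800. Nlrc5, the class I transactivator, was at 15.05, 10.8, 13.2, 10.2 and 10.9 CPM in vehicle livers 1 to 5 and at 10.7, 10.997, 6.94, 11.7 and 10.5 CPM in halofuginone livers 1 to 5. Its groups overlapped, with halofuginone liver 3 alone at the bottom, and the log2 fold change was −0.24 (SE 0.16, adjusted p = 0.274).

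**Figure D2:**
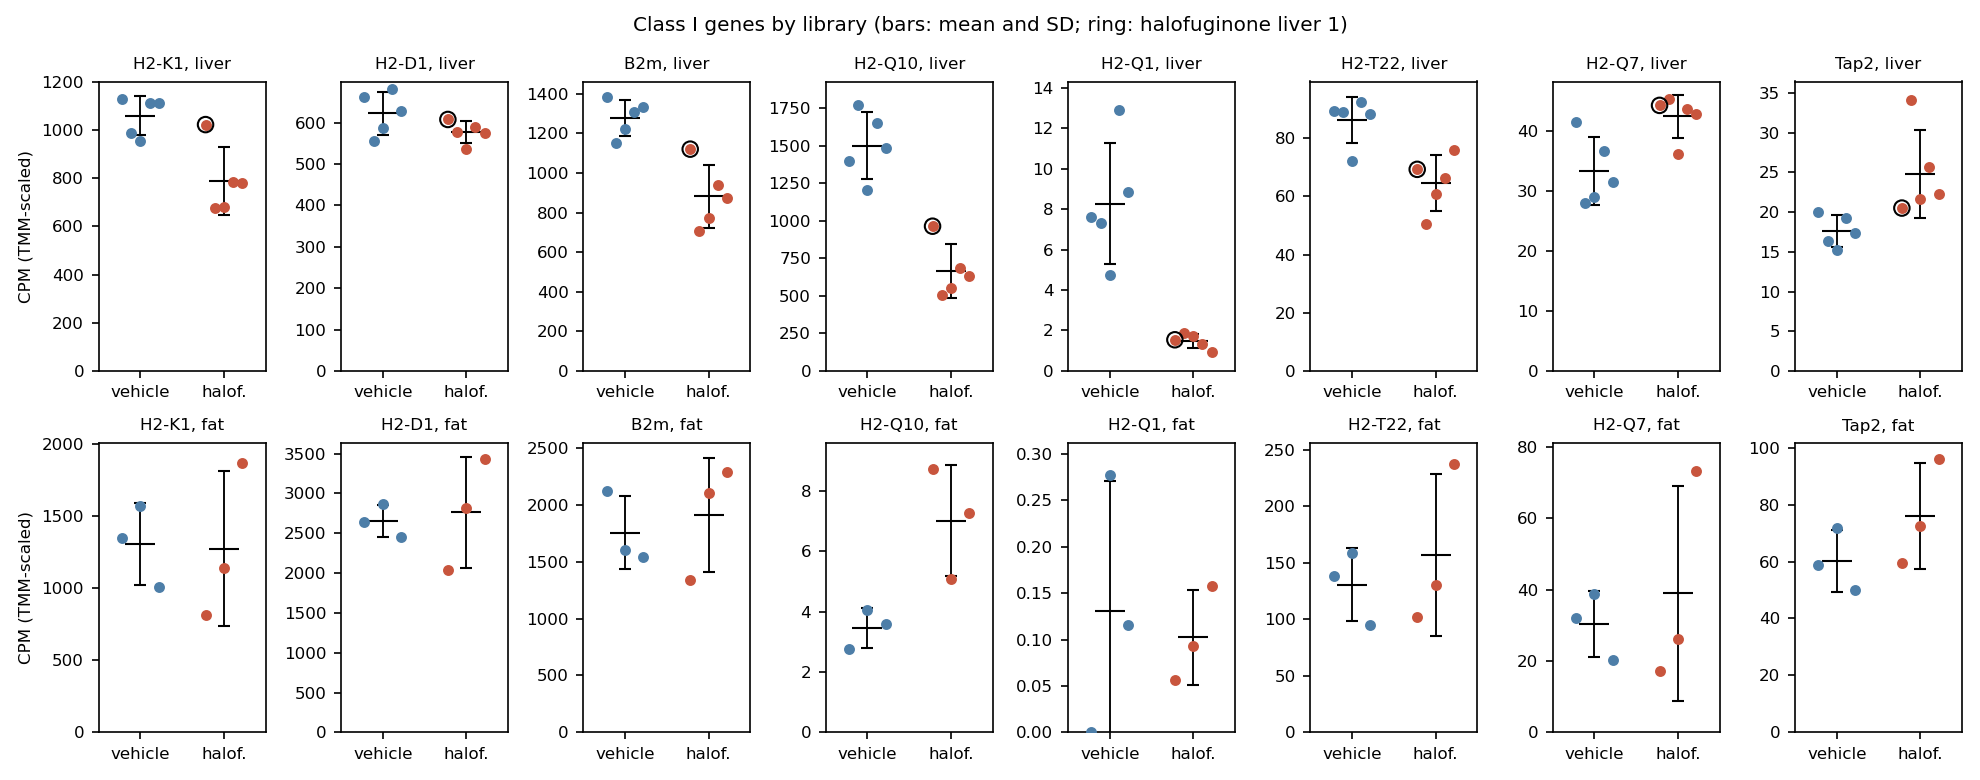
Levels of 8 class I genes by library, in TMM-scaled CPM on linear axes from 0, for vehicle (blue) and halofuginone (red, "halof.") libraries of liver (top) and fat (bottom), with mean and SD as black bars and halofuginone liver 1 ringed. In liver H2-Q10 lies at 1204 to 1773 CPM in vehicle and 503 to 964 CPM under halofuginone, while Tap2 is higher in all 5 halofuginone libraries; the H2-Q1 values in fat, 0 to 0.277 CPM, are near the floor of 3 counts.

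Class II and class I were then set against each other within each library. The summed class II chains were 0.0255 to 0.0366 of the summed class I heavy chains in vehicle livers, 0.0144 to 0.0187 in halofuginone livers 2 to 5 and 0.0451 in halofuginone liver 1. In summed CPM, class I heavy chains were 3080 to 3857 in vehicle livers and 2015 to 2941 in all 5 halofuginone livers, and class II chains were 93.6 to 132.4 in vehicle livers, 28.9 to 43.7 in halofuginone livers 2 to 5 and 132.8 in halofuginone liver 1. H2-Q10, which is in the class I sum, averaged 1500 CPM in vehicle and 666 CPM in halofuginone livers. H2-K1 and H2-D1 alone summed to 1543 to 1797 CPM in vehicle livers and 1216 to 1373 CPM in halofuginone livers 2 to 5. In halofuginone liver 1 they summed to 1631 CPM, inside the vehicle range. Against vehicle, halofuginone liver 1 was above all vehicle livers in 5 of 8 class II members and below all in 0, while each of halofuginone livers 2 to 5 was below all in 6 or 7 of 8. In class I that library was above all vehicle livers in 6 of 21 members and below all in 7, against 5 to 7 and 6 to 9 in halofuginone livers 2, 4 and 5. Halofuginone liver 3 was above all in 1 and below all in 10 of the 21. Such positions were not counted over all tested genes, so they are not shown to be particular to the members.

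Markers of cells that carry class II were summed beside these values. Dendritic cell markers were 11.1 to 12.5 CPM in vehicle livers, 6.94 to 8.57 CPM in halofuginone livers 2 to 5 and 13.1 CPM in halofuginone liver 1. Of 8 dendritic markers 5 were tested and 0 called over all libraries (median log2 fold change −0.65, with 3 at an unadjusted p under 0.05 and 2, Cd209a and Itgax, called by DESeq2), and without halofuginone liver 1 4 of 6 fell (Cd209a, Clec9a, Flt3 and Itgax), beside 21.6% of all tested genes. Pan-leukocyte markers were 45.7 to 56.9 CPM in vehicle, 33.3 to 39.5 CPM in halofuginone livers 2 to 5 and 68.6 CPM in halofuginone liver 1, and 0 of 4 were called by edgeR or DESeq2, with 1 at an unadjusted p under 0.05. Without halofuginone liver 1, 3 of 4 pan-leukocyte markers fell (Cd52, Coro1a and Laptm5), and their median moved from −0.24 to −0.50. In that setting the Kupffer cell markers Clec4f and Vsig4 and the T cell marker Cd4 also fell, 2 of 5 and 1 of 3 tested, where edgeR called 0 of either list over all libraries. Macrophage markers were 331 to 431, 341 to 380.1 and 522 CPM in the same order, with 1 of 8 called, Cd163 (higher). T cell markers, all low, were 2.30 to 4.62, 1.34 to 2.08 and 11.1 CPM, and B cell markers 12.2 to 43.3, 10.8 to 17.6 and 24.2 CPM. No marker of these 5 lists was at 0 in every liver library. Relative to the dendritic markers, class II chains were 7.88 to 11.9 in vehicle livers and 3.37 to 6.29 in halofuginone livers 2 to 5, and relative to the macrophage markers 0.262 to 0.381 and 0.0764 to 0.115. Halofuginone liver 1 was at 10.2 relative to the dendritic markers, inside the vehicle range. Relative to the macrophage markers it was at 0.254, just below that range. The part of cell numbers in the class II values was not tested further.

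**Figure D3:**
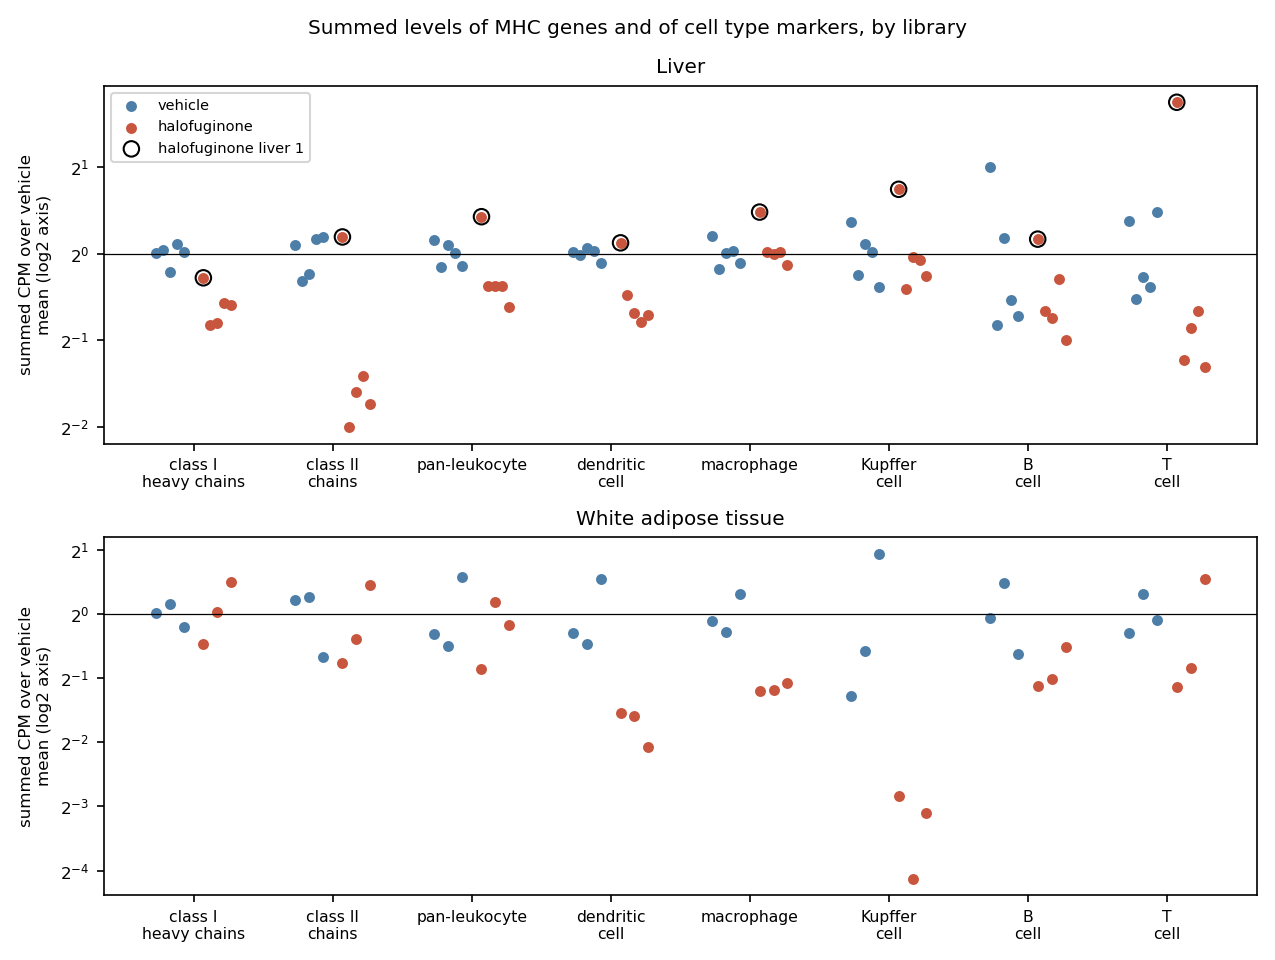
Summed CPM of MHC genes and of cell type marker lists in each library, divided by the vehicle mean of that tissue and drawn on a log2 axis, for vehicle (blue) and halofuginone (red) libraries, with halofuginone liver 1 ringed. In liver the class II chains of halofuginone livers 2 to 5 reach lower relative to vehicle than the pan-leukocyte, dendritic cell, macrophage, Kupffer cell, B cell and T cell lists. In fat the macrophage and Kupffer cell sums separate the groups, and the class I and class II sums do not. The dendritic cell sum, mostly Itgax, also separates them in fat.

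Other genes of the pathways were counted in liver beside the 23.2% of all tested genes called there. Of 7 class I loading partners, Tapbpl, a tapasin-related peptide editor, rose by 0.46 (adjusted p = 0.0314), the proteasome activator Psme1 fell by 0.42 (adjusted p = 0.0448), and the median was −0.20. Of 6 class II processing genes, the lysosomal protease Ctsl (cathepsin L) rose by 2.39 (adjusted p = 0.00611), from 520.0 ± 30.9 to 2724 ± 1264 CPM (SD, n = 5 each), and 5 were not called. The lowest halofuginone value of Ctsl, 479 CPM, lay inside the vehicle range of 472 to 548 CPM, and the 6 genes summed to 1833 CPM in halofuginone liver 1 against 4267 to 4673 CPM in halofuginone livers 2 to 5. The 7 factors that bind class II promoters with Ciita (the RFX and NF-Y subunits and Creb1) gave 0 calls with edgeR, 2 genes at an unadjusted p under 0.05, 1 call with DESeq2 (Nfyb) and a median of −0.04. Without halofuginone liver 1, beside 42.8% of all genes called, Psme2 also rose and Erap1 also fell among the loading partners, Ctss and Ifi30 fell among the processing genes, and of the promoter factors Rfxank rose and Nfyb, Nfyc and Rfxap fell. Irf2, an interferon regulatory factor, fell by 0.41 (adjusted p = 0.0428), and Ifng was at the floor. Cd1d1, which presents lipids to NKT cells, fell by 1.21 (adjusted p = 0.0304), from 142.4 ± 16.03 to 61.5 ± 43.2 CPM, and Mr1, which presents metabolites, gave −0.41 (adjusted p = 0.223) and fell without halofuginone liver 1. Summed Cd1d1 and Mr1 were 117.8 to 158.6 CPM in vehicle livers, 36.3 to 61.5 CPM in halofuginone livers 2 to 5 and 141.2 CPM in halofuginone liver 1, the same division of libraries as in class II.

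Halofuginone fat was compared with vehicle fat in the same way. Of 14030 genes tested with edgeR 0 were called (0%), and so 0 of 33 members, while 1 member and 13.4% of all genes had an unadjusted p under 0.05. DESeq2 called 655 genes in fat and 0 members. The median log2 fold change was 0.33 for class I and −0.28 for class II, against 0.01 for all genes. The groups did not overlap for 1 of 33 members, H2-Q10, beside 20.6% of all tested genes. Halofuginone fat 3 was above all vehicle fat libraries in 20 of 22 class I and 7 of 11 class II members, and halofuginone fat 1 was below all of them in 16 of 22 and 9 of 11, so the 3 halofuginone libraries lay on both sides of vehicle. These positions were not counted over all tested genes, so they are not shown to be particular to the members.

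H2-Aa in fat was at 881, 891 and 464 CPM in vehicle and 415, 584 and 968 CPM in halofuginone libraries 1 to 3. Vehicle fat 3 was as low as the halofuginone libraries 1 and 2, and halofuginone fat 3 was the highest. The log2 fold change was −0.19 (SE 0.38, adjusted p = 0.875). H2-Ab1 was at 521, 561 and 293 CPM in vehicle and 316, 387 and 714 CPM in halofuginone libraries 1 to 3, and H2-Eb1 at 509.6, 519 and 272 CPM in vehicle and 234, 274 and 566 CPM in halofuginone libraries 1 to 3. Both followed the pattern of H2-Aa, with log2 fold changes of 0.04 (SE 0.38) and −0.28 (SE 0.40), and adjusted p of 0.975 and 0.816. Cd74 was at 1296, 1415 and 757 CPM in vehicle and 778, 1124 and 1821 CPM in halofuginone libraries 1 to 3, and its log2 fold change was 0.10 (SE 0.37, adjusted p = 0.937). Ciita was at 22.2, 21.4 and 18.1 CPM in vehicle and 5.66, 8.13 and 23.8 CPM in halofuginone libraries 1 to 3. Halofuginone fat 1 and 2 were below all vehicle libraries and halofuginone fat 3 was above them, which gave a log2 fold change of −0.71 (SE 0.51, adjusted p = 0.598). H2-DMb1 averaged 73.3 ± 11.7 and 44.7 ± 19.6 CPM (mean ± SD, n = 3 each), with a log2 fold change of −0.71 (SE 0.32, adjusted p = 0.394). The other 5 class II members tested, H2-DMa, H2-DMb2, H2-Eb2, H2-Oa and H2-Ob, had log2 fold changes from −0.59 to 0.16.

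In class I, 19 of 22 members had a positive log2 fold change in fat, without a call, beside 7181 of 14030 genes tested. Halofuginone fat 3 was above all vehicle libraries in 20 of these 22, so they are not separate instances. H2-K1 was at 1351, 1573 and 1008 CPM in vehicle and 816, 1140.3 and 1872 CPM in halofuginone libraries 1 to 3, and H2-D1 at 2643, 2864 and 2457 CPM in vehicle and 2036, 2815 and 3434 CPM in halofuginone libraries 1 to 3. For both, halofuginone fat 1 was the lowest and halofuginone fat 3 the highest of all 6, and the log2 fold changes were −0.04 (SE 0.34) and 0.06 (SE 0.23). B2m was at 2120.2, 1600.2 and 1537 CPM in vehicle and 1341, 2099 and 2291 CPM in halofuginone libraries 1 to 3, with a log2 fold change of 0.12 (SE 0.26, adjusted p = 0.877). Nlrc5 was at 27.3, 29.9 and 25.9 CPM in vehicle and 23.8, 29.6 and 52.9 CPM in halofuginone libraries 1 to 3, and Psmb8 at 51.8, 61.7 and 44.3 CPM in vehicle and 36.97, 52.8 and 99.3 CPM in halofuginone libraries 1 to 3. In both genes 1 library, halofuginone fat 3, was far above the rest, and the adjusted p were 0.662 and 0.806. Tap1 was at 29.5, 43.9 and 28.2 CPM in vehicle and 31.03, 48.1 and 90.6 CPM in halofuginone libraries 1 to 3, which again placed halofuginone fat 3 highest, with a log2 fold change of 0.74 (SE 0.40, adjusted p = 0.473). H2-Q10 was at 2.76, 4.05 and 3.58 CPM in vehicle and 8.72, 5.07 and 7.26 CPM in halofuginone libraries 1 to 3. All 3 halofuginone libraries were above all vehicle libraries, but the log2 fold change of 1.02 (SE 0.31) had an adjusted p of 0.262. Alb, the only 1 of 5 hepatocyte markers that passed the filter in fat, also did not overlap, as for 20.6% of all tested genes. It was at 1.62 ± 0.828 and 3.44 ± 1.06 CPM (SD, n = 3 each). Summed hepatocyte markers overlapped, at 2.55 to 4.39 CPM in vehicle and 2.60 to 7.05 CPM in halofuginone fat. The part of hepatocyte transcripts in the H2-Q10 values was not tested.

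**Figure D4:**
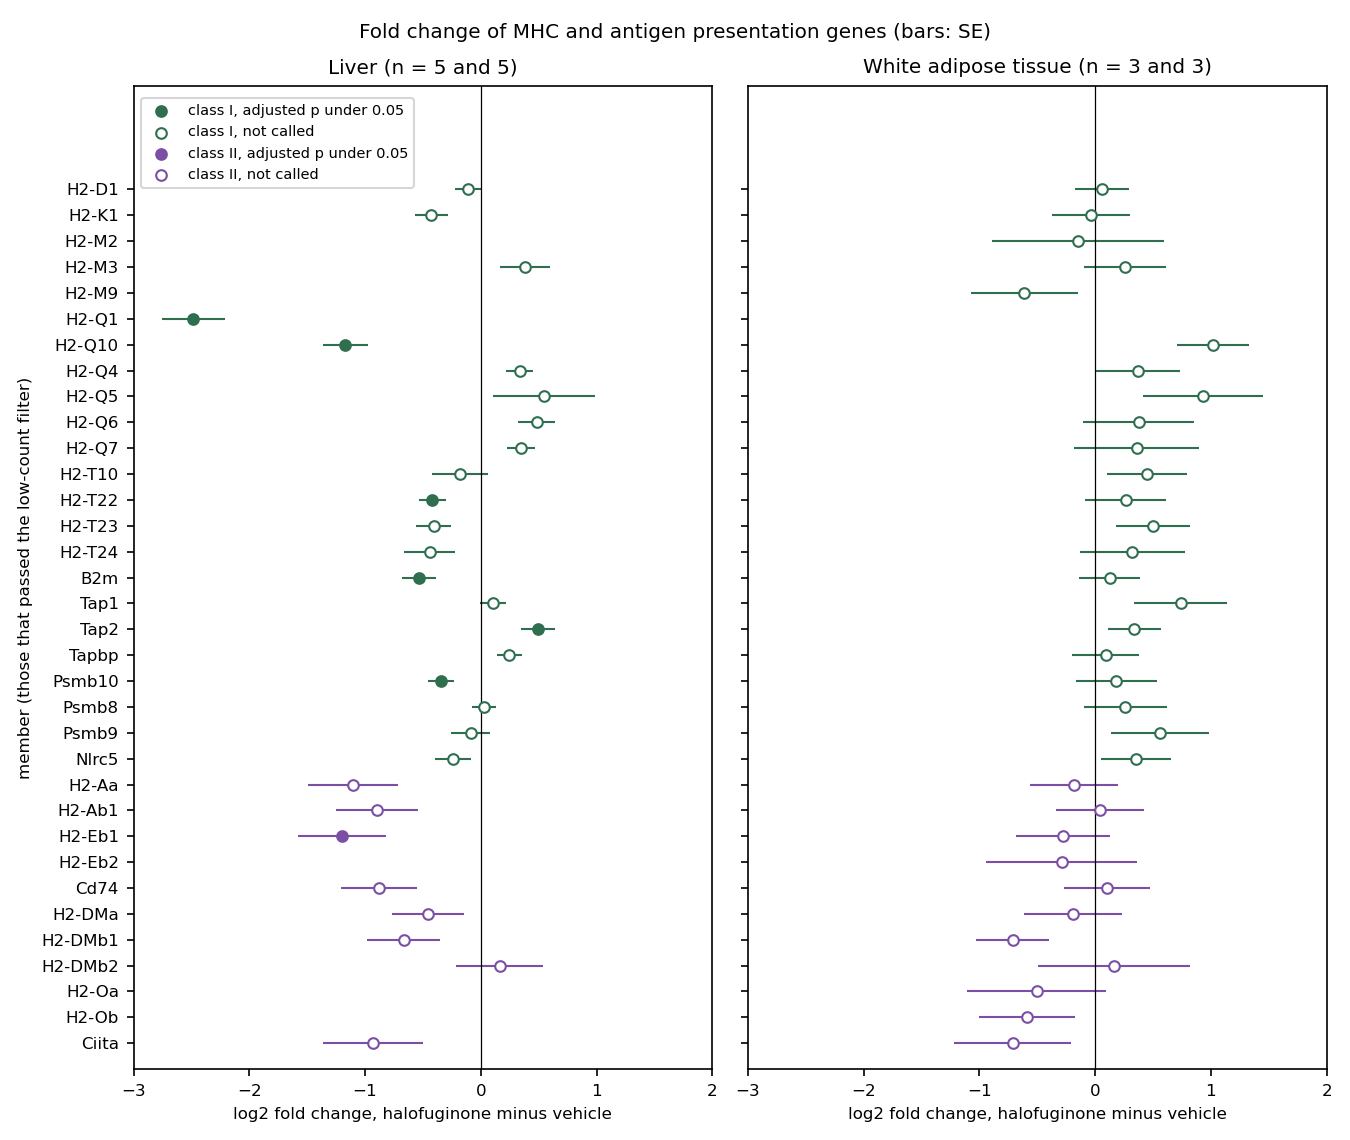
Log2 fold change (halofuginone minus vehicle, with SE bars) of each member that passed the low-count filter, in liver and fat, with class I in green, class II in purple and filled points for an adjusted p under 0.05. In liver the class II points lie left of 0 except H2-DMb2, from −1.20 to 0.16, and class I lies on both sides; in fat 0 points are filled.

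Macrophage markers separated the fat groups where class II did not. Summed macrophage markers were 3100.1 to 4656 CPM in vehicle and 1630.5 to 1774 CPM in halofuginone fat, and dendritic markers, mostly from Itgax, 328 to 667 and 108.3 to 155.7 CPM. Itgax averaged 417 CPM in vehicle and 87.1 CPM in halofuginone fat. Of 8 dendritic markers 5 had a positive log2 fold change and 3 a negative one (median 0.13). The groups did not overlap for Zbtb46 and Batf3 (higher in halofuginone fat) and for Itgax (lower), as for 20.6% of all tested genes. None of these was called by edgeR (adjusted p = 0.388, 0.587 and 0.156). Of 8 macrophage genes 8 had a negative log2 fold change (median −1.19), 0 were called by edgeR with 7 at an unadjusted p under 0.05, and 5 were called by DESeq2. Class II chains in the same libraries summed to 1031 to 1972 CPM in vehicle and 965 to 2249 CPM in halofuginone fat. Class II chains were thus 0.221 to 0.636 of the macrophage sum in vehicle and 0.592 to 1.27 in halofuginone fat. Pan-leukocyte markers overlapped, at 663 to 1385 and 514 to 1061 CPM, as did T cell markers, at 32.0 to 48.9 and 17.8 to 57.1 CPM. The T cell sum was highest in halofuginone fat 3 and lowest in halofuginone fat 1, as were the sums of class I heavy chains and of class II chains, and its part in them was not tested.

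The drug effect was last compared between tissues, by subtracting the log2 fold change in liver from that in fat within 1 edgeR fit of all 16 libraries. H2-Q10 was the only member called, with a difference of 2.17 on the log2 scale (SE 0.34, adjusted p = 0.00892), beside 0.949% of all tested genes. The 4 class II genes H2-Aa, H2-Ab1, H2-Eb1 and Cd74 had differences of 0.90, 0.93, 0.91 and 0.97, none past the threshold (adjusted p = 0.518, 0.469, 0.511 and 0.417). Without halofuginone liver 1, these 4 and H2-Q10 were called, 5 members in all and each higher in fat, beside 7.07% of all genes. The class II differences were then 1.52, 1.48, 1.51 and 1.46 (adjusted p = 0.0371, 0.0326, 0.0421 and 0.0335), and that of H2-Q10 was 2.33. Since halofuginone liver 1 differed from its group in these class II values, the 4 class II calls without it are not separate support. H2-Q1 had a difference of 2.11 (adjusted p = 0.313), but its fat level was at 0 to 0.277 CPM, near the floor. Ciita gave 0.21 over all libraries and 0.94 without halofuginone liver 1 (adjusted p = 0.945 and 0.315).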

How the data were processed

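Poly(A)-selected RNA of liver and white adipose tissue was sequenced. Each tissue has its own deposited table, and both hold the same 22322 gene identifiers, 22267 of them with a symbol. Counts and FPKM stand in separate columns for every library, per the file headers. The submitters' processing notes name fastp 0.18.0, Bowtie2 2.2.8, HISAT2, StringTie 1.3.1, RSEM and the build mm39, and which tool made which column is not given in the sources used here. The deposited counts may be rounded estimates, since 1 to 31 genes per library combine an FPKM above 0 with a count of 0. Strand is not given, so overlapping and antisense genes cannot be told apart. Columns were matched to samples by title, and 0 were left unmapped.

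Separate fits for liver and fat used edgeR 4.0.16 (R 4.3.3, filterByExpr, TMM, quasi-likelihood test, 2-sided, Benjamini-Hochberg over all tested genes), and a call is an adjusted p under 0.05. The fat effect minus the liver effect was tested in 1 fit of all 16 libraries, taken as independent. The labels do not say whether liver and fat libraries with the same number came from 1 animal, and this was not tested. A standard error is the absolute log2 fold change over the square root of the F statistic. Immunoproteasome ratios used a pseudocount of 0.5 and exact permutation tests (scipy 1.17.1). The edgeR procedure was tested on simulated data. Replicates differed by more than counting error in every pair (lowest chi-square per degree of freedom 29.7). Each library was treated as 1 replicate, but this spread does not show that libraries came from separate mice.

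Values of every library are given for members called in a tissue whose higher group reached 5 CPM, and in both tissues for H2-K1, H2-D1, B2m, Nlrc5, Tap1, Psmb8, H2-Aa, H2-Ab1, H2-Eb1, Cd74 and Ciita. H2-Q10 in fat was added after its values were seen. In other lists, up to 3 called genes per direction with at least 5 CPM were named, and other genes named there were chosen after their values were seen. Members and lists were chosen with earlier results of these data known, and the motifs GAANNGAAA and GGGATTCCC after the promoters had been read. Other settings tried were scaling by library size alone or by DESeq2 size factors, DESeq2 1.42.0 itself, robust dispersion, other low-count filters, 1 fit of all libraries, limma 3.58.1 on log2 of the deposited FPKM plus 1 or 0.1 (genes with at least 1 FPKM), a pseudocount of 5 or FPKM for the ratios, the replicate number as a block, and leaving out each library. Lists without halofuginone liver 1 were added after seeing the data. RefSeq promoters are on GRCm38.p6 and the deposited tables on mm39, so coordinates are given for the promoter windows only. The full result of the interferon-gamma signalling list is not reported here.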

Additional observations from a re-analysis of the deposited data

Results flagged for a closer look

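In liver 5 class II genes had halofuginone liver 1 far above the other 4 libraries of its group. Cd74 was at 119.5 CPM there, against 44.6 CPM in the next library. Ciita was at 3.28 against 0.823 CPM, H2-Aa at 55.8 against 18.2 CPM, H2-Ab1 at 42.0 against 14.1 CPM and H2-Eb1 at 34.7 against 11.4 CPM. In class I, vehicle liver 3 had H2-T22 at 72.2 CPM, below the next library at 88.4 CPM, and halofuginone liver 3 had Nlrc5 at 6.94 CPM, below the next at 10.5 CPM. Of 32 groups of 5 libraries examined 7 had such a library, where 1.6 would be met by chance. The 5 class II genes share that library and are not independent of one another.

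The drug effect on H2-Q10 differed between tissues by test. Its log2 fold change in fat minus that in liver was 2.17 (SE 0.34, adjusted p = 0.00892, edgeR), with all 5 halofuginone livers below vehicle and all 3 halofuginone fat libraries above vehicle. Over 23 alternatives the adjusted p ran from 1.37e-06 to 0.0881.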

How the results depend on the processing

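For the members printed library by library, 428 results kept their direction and side of the threshold under an alternative, 49 lost a call, 19 gained one and 21 changed sign. The liver calls of H2-Q1 and H2-Q10 held in all 20 alternatives. Class I members called higher in liver (1) became 4 with DESeq2, 5 by library size alone, 2 with the robust fit, 0 in 1 fit of all libraries and 5 with limma on either FPKM scale. Those called lower (5) became 7 with DESeq2, 6 with a filter of 1 CPM and 4 with no filter or with the replicate block. They became 2, 2, 3 and 3 by library size alone, in 1 fit of all and with limma on FPKM + 1 and FPKM + 0.1. Class II members called lower (1) became 4 with DESeq2 and with limma on either scale. The class I median was 0.041 by library size alone and 0.046 with limma on either scale, where H2-D1, the middle member, had the same values and changed sign. In fat H2-K1 was 0.022 by library size alone. Genes called in fat (0) became 655 with DESeq2, 1 with no filter, 334 in 1 fit of all and 17 with limma on FPKM + 1, and in the difference between tissues (141) 686 with DESeq2. The cause of these changes was not tested.

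Leaving out 1 library gave 1275 to 5312 called genes in liver, 0 to 3 class I members higher, 2 to 8 lower, 0 to 7 class II members lower and class II medians of −1.45 to −0.76, and Psmb8 ran from −0.0480 to 0.0684. In fat it gave 0 to 1 called genes and class II medians of −0.81 to −0.0462. The fat log2 fold changes ran from −0.0148 to 0.33 for B2m, −0.27 to 0.35 for Cd74, −0.56 to 0.0591 for H2-Aa, −0.37 to 0.27 for H2-Ab1, −0.11 to 0.24 for H2-D1, −0.41 to 0.20 for H2-K1, −0.0363 to 0.57 for Nlrc5 and −0.21 to 0.53 for Psmb8. The ratio of Psmb10 to Psmb7 in liver ran from −0.19 to 0.0116, and in fat that of Psmb8 to Psmb5 from −0.14 to 0.50 and of Psmb9 to Psmb6 from −0.24 to 0.56. The difference between tissues gave 34 to 1053 called genes. The extremes in liver came without halofuginone liver 1 or 3 for the counts of called genes, and in fat without halofuginone fat 1 or 3.

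With the replicate number as a replicate block, 1901 genes were called in liver, 0 in fat and 20 in the difference, 4 class II members were called lower in liver, and H2-Ab1 in fat was −0.0113. The block also ended the liver calls of Psmb10 (adjusted p = 0.0735) and Tap2 (adjusted p = 0.0621). The number marks no shared animal or batch in the labels. Within a tissue, deviations of same-numbered vehicle and halofuginone libraries correlated at −0.16 to 0.06 in liver and −0.57 to 0.11 in fat. Of 8 such pairs, 1 correlated best with its own number. Depth limits members under about 1 CPM, such as H2-Q5, H2-T10 and H2-DMb2 in liver.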

Other observations

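Of 5 costimulation genes, which act beside the MHC at the cell surface, edgeR called 0 in fat. Cd86, a costimulatory ligand of CD28, was at 10.2 ± 0.878 CPM in vehicle and 57.6 ± 40.5 CPM in halofuginone fat (SD, n = 3 each). Its log2 fold change was 2.50 (SE 0.50, adjusted p = 0.159). Cd274 (PD-L1, an inhibitory ligand) was at 23.2 ± 2.52 and 83.8 ± 43.9 CPM, and its change was 1.85 on that scale (SE 0.37, adjusted p = 0.159). The groups did not overlap for either gene, as for 20.6% of all genes in fat, and DESeq2 called both. Cd40, Cd80 and Icosl had log2 fold changes of 0.21, −0.13 and −0.18. In liver 0 of the same 5 genes were called by edgeR or DESeq2, with 0 at an unadjusted p under 0.05 and a median of −0.27. Cd86 and Cd274 were picked out after their values were seen.

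Endothelial cells of the liver also present antigen. Their markers divided in halofuginone liver: Cdh5 (VE-cadherin) fell by 0.40 (adjusted p = 0.0249), Pecam1 fell by 0.34 (adjusted p = 0.0118) and Kdr (a VEGF receptor) rose by 0.47 (adjusted p = 0.0423), while Stab2 and Tie1 did not pass. These calls stand beside 23.2% of all tested genes called over all libraries. Cdh5, Pecam1 and Stab2 fell and Kdr did not pass when halofuginone liver 1 was left out, beside 21.6% of genes called lower. For Cdh5, Pecam1 and Kdr the groups did not overlap, as for 11.7% of all genes in liver.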
